A study of Homo sapiens with 6 samples.

Results

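The genes described here are 45 human genes of the interferon system and of nucleic acid sensing, out of 67016 human genes in the counts table. They were taken from a list of symbols that covers sensors and adapters, transcription factors, the ISG15 pathway, the *PARP14*, *PARP9* and *DTX3L* cluster, antiviral effectors and IFI-named genes, and every symbol was matched to an Ensembl identifier through GENCODE release 44. The list names genes by function and uses no expression cutoff, and it was drawn up with earlier results of these data known. RNA was sequenced from SH-SY5Y cells, an established human neuroblastoma line, 24 h after infection with an adenovirus. The control group received Ad CMV GFP (3 libraries, replicates 1, 3 and 4, called GFP libraries). The other group received Ad CMV 3xFlag-*Esrrg* (3 libraries, replicates 2, 3 and 4, called ERRg libraries). This virus carries the mouse coding sequence of the orphan nuclear receptor estrogen-related receptor gamma (ERRγ) with a 3xFlag tag behind the CMV promoter. Both groups carried adenovirus, so every value below is a difference between cells that received different adenoviruses, and levels in SH-SY5Y cells without virus were not analysed here. All libraries come from 1 cell line, and the labels do not say whether the replicates were separate cultures, so p-values measure the spread between these samples, which may be technical.

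Cells detect foreign nucleic acid with sensors in the cytosol and in endosomes. RIG-I (*RIGI*) and MDA5 (*IFIH1*) bind viral RNA and signal through the mitochondrial adapter MAVS, cGAS (*CGAS*) binds DNA in the cytosol and signals through STING (*STING1*), and TLR3 binds long RNA duplexes in endosomes. These routes meet at the kinase TBK1, which activates IRF3 and IRF7 and so the genes of type I interferons. Secreted interferon acts through JAK kinases on a complex that holds STAT2 and IRF9 and binds the interferon-stimulated response element (ISRE) in promoters of interferon-stimulated genes such as *ISG15*, *MX1*, *OAS1* and *IFIT1*. Adenoviruses are DNA viruses that encode proteins and RNAs known to counteract parts of this response.

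The comparison asked which of these genes differed between the ERRg and the GFP libraries, and in which direction. The antiviral gene *SLFN5*, the helicase *DDX60*, the RNA sensors *RIGI* and *IFIH1*, and *PARP14*, *IFI44*, *OAS1* and *IRF5* were lower with Ad CMV 3xFlag-*Esrrg*, by 1.58-fold to 3.11-fold. The ubiquitin-like modifier *ISG15* and the mitochondrial protein gene *IFI6* were higher, by 2.20-fold and 1.74-fold. The other 27 genes with enough reads for a test, among them *STAT2*, *MAVS*, *IRF3*, *MX1*, *OAS3* and the *IFIT* genes, were not called.

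Depth ranged from 24969759 to 29700979 gene-assigned reads in the GFP libraries and from 26513620 to 40859666 in the ERRg libraries. Reads that the counting assigned to no gene, the no-feature share, were 51.3% to 52.2% of all reads with GFP, and 46.6%, 31.6% and 29.5% in ERRg replicates 2, 3 and 4, so ERRg replicate 2 stood nearer to the GFP libraries in this respect. The groups did not overlap in this share, so a fit with it as a covariate cannot tell it apart from the virus. Reads set apart as ambiguous between genes were 4.5% to 4.9% of all reads with GFP. They were 5.7%, 9.8% and 9.8% in ERRg replicates 2, 3 and 4. The part of these reads in the values of genes with overlapped exons, among them *RIGI*, *IFI6* and *IFNA1*, was not tested. Reads on the human gene *ESRRG* were at 87.0 ± 3.40 CPM (counts per effective library size, scaled by TMM) in the GFP libraries. In the ERRg libraries they were at 706 ± 119 CPM (SD, n = 3 in each group). The log2 fold change was 3.02 ± 0.14 (SE, adjusted p = 6.3e-07, edgeR's quasi-likelihood test). How much of this count came from the mouse transgene was not measured. Markers of sympathetic neuroblastoma were detected for 10 of 12 genes, and *TH* and *CHGA* were at 0 counts in all libraries. Of 8 immune cell markers 1 passed the filter (*PTPRC*, 10 to 22 counts), and *CD3E* was at 0. All 6 mesenchymal markers were detected and had log2 fold changes below 0, with a summed level of 3410 to 3530 CPM with GFP and 3050 to 3320 CPM with ERRg. *LUM* (-1.15), *DCN* (-0.76) and *COL1A2* (-1.47, 25 to 90 counts per library and not above silent genes) were called lower, and *COL1A1* (9155 to 12977 counts), *COL3A1* (67352 to 89878 counts) and *PDGFRB* were not called. Epithelial markers summed to 35.5 to 42 CPM with GFP and 60.4 to 94.8 CPM with ERRg. Most of this difference was *KRT18*, called higher (1.56), with means of 20.8 and 61.5 CPM. *EPCAM* (-0.27), *KRT8* (0.18) and *KRT19* (0.51) were not called, and *CDH1* had too few reads for a test. The part of these markers in the values below was not tested.

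The ISRE is a sequence through which interferon acts on many of its target genes, so its matches near the gene starts are shown first. Windows of RefSeq from 250 bases before to 50 bases after the start on GRCh38.p14 were at hand for 32 of the 45 genes. The core GAAANNGAAA, read on both strands, was present in the window of 20 of these 32 genes (62.5%) and of 4.38% of all 27305 genes with a window. Among the called genes it was present for both higher genes and for 4 of the 7 lower genes with a window, and it was also present for 13 of the 20 genes that were tested and not called. The lines below give 30 bases around 1 match for each called gene that has one, and for *DTX3L* and *MX1* as genes that were not called, 5′ to 3′ on the strand of the gene, with the match in capitals. Where the capitals begin with TTTC the match lies on the opposite strand.
*ISG15*, 107 bases upstream of the start, chr1:1013380-1013409, plus strand: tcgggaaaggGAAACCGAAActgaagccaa
*IFI6*, 115 bases upstream, chr1:27672288-27672317, minus strand: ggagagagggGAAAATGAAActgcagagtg
*DDX60*, 53 bases upstream, chr4:168318786-168318815, minus strand: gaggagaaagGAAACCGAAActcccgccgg
*IFIH1*, 21 bases upstream, chr2:162318686-162318715, minus strand: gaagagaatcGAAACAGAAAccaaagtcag
*PARP14*, 29 bases upstream, chr3:122680800-122680829, plus strand: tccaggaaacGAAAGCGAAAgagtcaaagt
*IFI44*, 60 bases upstream, chr1:78649761-78649790, plus strand: gcacactgagTTTCAGTTTCctttctctga
*DTX3L*, 6 bases upstream, chr3:122564322-122564351, plus strand: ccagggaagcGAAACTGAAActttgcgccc
*MX1*, within the window, chr21:41420559-41420588, plus strand: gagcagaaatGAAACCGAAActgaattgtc

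*ISG15*, which was higher, holds the same 10 letters in capitals as *DDX60*, which was lower, and as *MX1*, which was not called. The *DTX3L* match is the same stretch of chromosome 3 as a match 41 bases upstream of the *PARP9* start, because these genes start next to each other on opposite strands. No match was present in the windows of *RIGI*, *IRF5* and *OAS1*. The interferon-gamma activated sequence TTCNNNGAA was present for 10 of the 32 genes (31.2%) and for 9.38% of all genes, and the ERR response element TCAAGGTCA for 0 of 32 and for 0.432% of all genes. A match is a description of letters in this window, and binding was not measured. Windows were not used here for *SLFN5*, *IRF2*, *IRF3*, *IRF7*, *IFIT2*, *OAS2*, *OASL*, *USP18*, *CGAS*, *MX2*, *NLRC5*, *STING1* and *TRIM22*.

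Detection came first. A gene counted as detected when its counts passed edgeR's filter on low counts, which 37 of the 45 genes did. As a measure of background, each gene's level per kb of exon was set against 415 protein-coding olfactory receptor genes, which are silent in most cells, and 33 genes lay above the 95th percentile of that set in every library of both groups. Of the other 4 detected genes, *OAS1* and *MX1* did not clear that limit in either group, and *IRF5* and *OASL* cleared it in every ERRg library but not in every GFP library. Per length, the highest of the 45 were *MAVS* at 15.6 and 21.4 CPM per kb in the GFP and ERRg groups, *IFI6* at 11.2 and 19.4, *DTX3L* at 11.2 and 8.83, *STAT2* at 9.60 and 10.3, *IRF3* at 7.22 and 10.8, and *TRIM25* at 5.84 and 7.84.

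**Figure D1:**
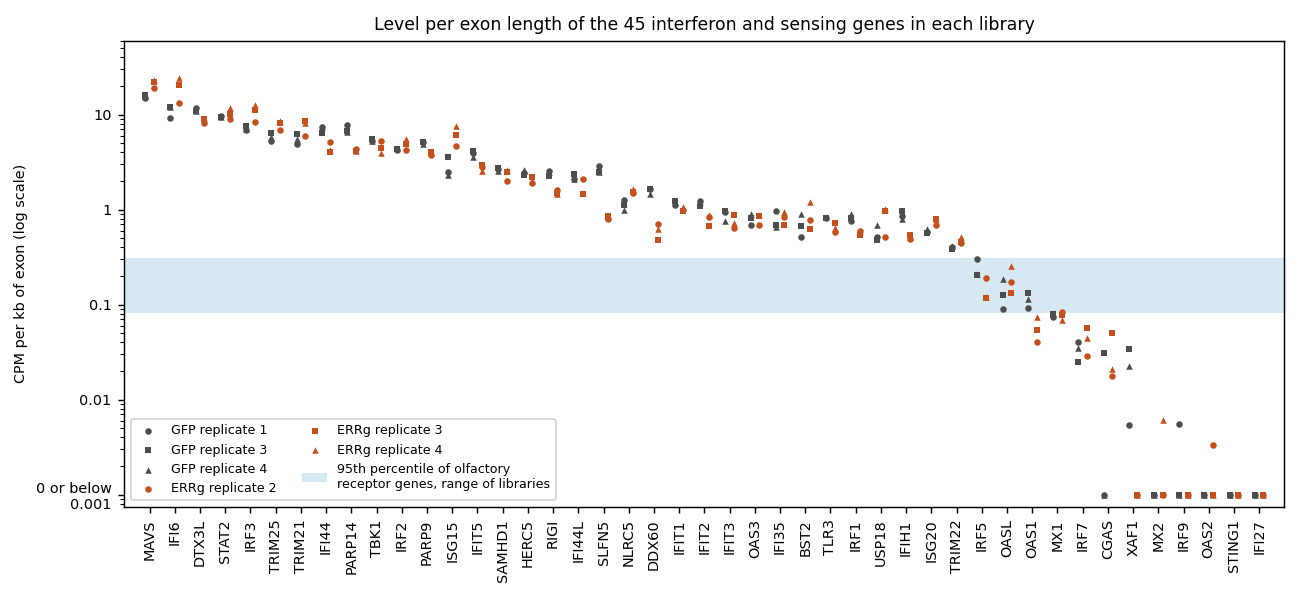
CPM per kb of exon (y axis, log scale) of the 45 genes in each of the 6 libraries, with 1 point per library, GFP and ERRg libraries in different colours, and a band for the 95th percentile of olfactory receptor genes. *MAVS* stands highest, *OAS1* and *MX1* lie near the band, and the 8 untested genes have the lowest means of the 45. Among these *IRF7* lies at 0.025 to 0.057 CPM per kb, and values of 0 are drawn at the foot of the axis.

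The other 8 genes had too few reads for a test. *STING1* and *IFI27* were at 0 counts in all 6 libraries, against a limit of 3 counts, or 0.088 to 0.112 CPM. *CGAS* had 0, 4 and 0 counts in GFP replicates 1, 3 and 4 and 2, 7 and 3 in ERRg replicates 2, 3 and 4, so the cytosolic DNA sensor and its adapter were both near or at 0. *IRF9* had 1, 0 and 0 counts with GFP and 0 in each ERRg library. *IRF7* had 3, 2 and 3 counts with GFP and 2, 5 and 4 with ERRg. *OAS2* had 1 read in ERRg replicate 2 and none elsewhere, and *MX2* had 3 reads in ERRg replicate 4 and none elsewhere. *XAF1*, a pro-apoptotic interferon-stimulated gene, had 1, 7 and 5 counts with GFP and 0 in each ERRg library, which is too few for a fold.

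Some of these genes lie among others with few or no reads. All 10 of the nearest protein-coding neighbours of *IRF9*, 5 on each side, had at most 1 count summed over the 6 libraries, *PSME1* and *PSME2* among them, and all 10 neighbours of *IFI27* were at 0. Of the transcript words of 31 bases, 90.4% for *IFI27* and 85.0% for *IRF7* also occurred in alternate contigs of the genome, against 6.2% for *IRF9* and 5.1% for *STING1*. Near *STING1*, 5 of 10 neighbours had more than 1000 counts, with *UBE2D2* at 17358, and near *CGAS* 4 of 10 did. The neighbours and contigs were looked up after the counts had been seen, and which annotation the counting used is not given in the sources used here.

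A call required an adjusted p below 0.05 (edgeR's quasi-likelihood test, Benjamini-Hochberg over the 24500 genes tested) together with a fold change of 1.5 or more. Of the 37 tested genes, 2 were called higher (5.41%), against 17.3% of all tested genes, and 8 were called lower (21.6%), against 16.8% of all tested genes. In either direction 10 were called (27.0%), against 34.1% of all tested genes. For 26 of the 37 genes (70.3%) every library of one group lay above every library of the other, against 58.1% of all tested genes. Over the 37 genes the log2 fold changes had a median of -0.21, beside -0.10 over all tested genes and 0.12 over the 13746 tested protein-coding genes, of which 25.9% were called higher and 12.4% lower. When the libraries were scaled by library size alone, the median of all genes moved to -0.42 and that of the 37 genes to -0.54, with 1 of the 37 called higher and 16 lower. Over all tested genes 2200 were then called higher and 7566 lower. An exact permutation test of 3 libraries against 3 cannot go below p = 0.1, so each call rests on the spread that edgeR shares between genes.

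**Figure D2:**
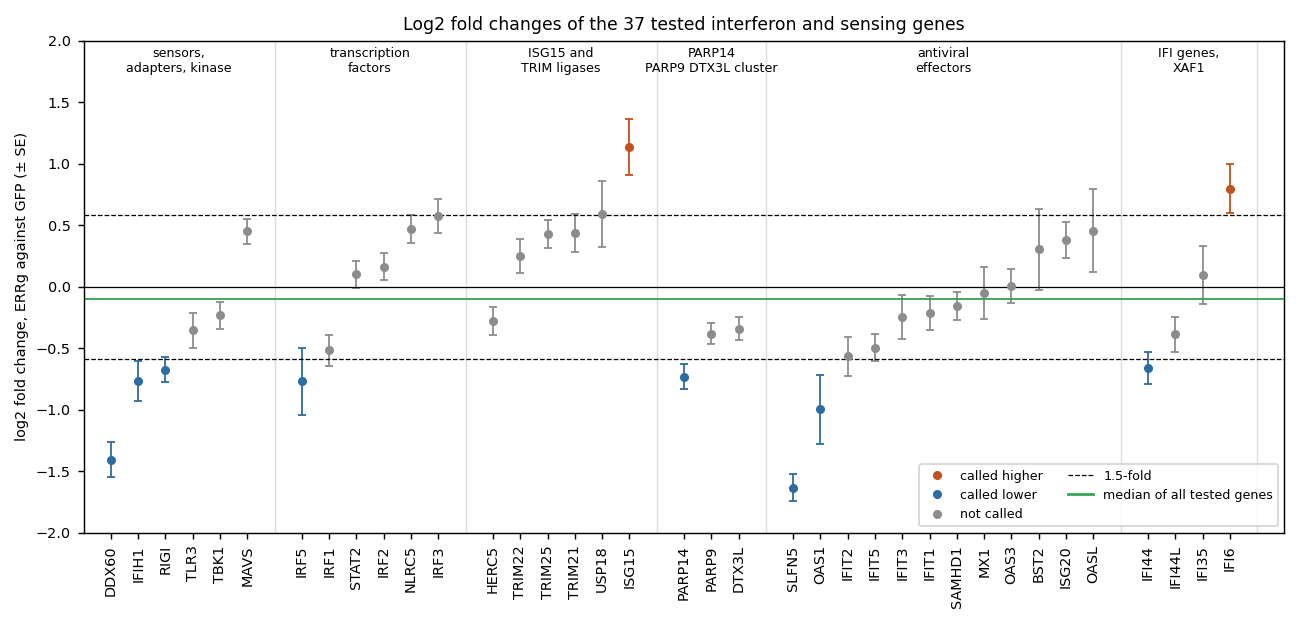
Log2 fold change of ERRg against GFP (y axis) of the 37 tested genes grouped by role, with 1 SE as the bar, the called genes coloured by direction, dashed lines at 1.5-fold and a line at the median of all tested genes. *SLFN5* and *DDX60* lie farthest below 0 at -1.63 and -1.41, and *ISG15* lies farthest above 0 at 1.14.

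Of the sensors, adapters and the kinase TBK1, 6 of 8 were tested, 3 were lower and none was higher, with a median log2 fold change of -0.52. The counts for this and the following roles lie beside 17.3% of all tested genes called higher and 16.8% called lower. No role was tested as a set. *DDX60* (chr4:168216291-168318883, minus strand, GRCh38), a helicase linked to RIG-I signalling, had 801, 894 and 846 counts in GFP replicates 1, 3 and 4 and 326, 278 and 369 in ERRg replicates 2, 3 and 4. Every ERRg library lay below every GFP library. Its level was 27.6 ± 1.81 CPM with GFP and 10.4 ± 2.0 with ERRg (SD, n = 3), and it fell by 1.41 ± 0.14 (SE) on the log2 scale (adjusted p = 5.5e-05, edgeR). *IFIH1*, which encodes the sensor of long viral RNA duplexes MDA5 (chr2:162267074-162318684, minus strand), had 125, 156 and 139 counts with GFP and 68, 95 and 91 with ERRg. The groups did not overlap, at 4.56 ± 0.436 and 2.68 ± 0.139 CPM, and the log2 fold change was -0.76 ± 0.16 (SE, adjusted p = 0.0032, edgeR).

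*RIGI*, the sensor of short RNA with a 5′ triphosphate (chr9:32455302-32526208, minus strand), had 741, 717 and 859 counts with GFP and 449, 517 and 513 with ERRg. Again all ERRg libraries lay below all GFP libraries, at 15.7 ± 0.929 against 25.1 ± 1.70 CPM, with a log2 fold change of -0.68 ± 0.10 (SE, adjusted p = 4.5e-04, edgeR). In GENCODE release 44 another gene on the same strand covers 43.2% of the exon bases of *RIGI*, so its count depends on how such reads were assigned. The share of ambiguous reads was higher in the ERRg libraries, and its part in this value was not tested. Corrected for GC content and gene length, *RIGI* stood at -0.39 and was no longer called, and with the no-feature share in the model it stood at -0.53, also not called. Both RNA sensors were thus lower, while the adapter they share was not. *MAVS* was the most abundant of the 45 genes per length, with 5024, 5917 and 6060 counts with GFP and 5994, 8719 and 9240 with ERRg. Its ERRg libraries all lay above its GFP libraries, at 251 ± 24.4 against 184 ± 6.62 CPM, but the log2 fold change of 0.45 ± 0.10 (SE, adjusted p = 0.0049, edgeR) did not reach 1.5-fold. Without ERRg replicate 2 it was 0.64 and *MAVS* was called higher.

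Neither the sensor gene *TLR3* nor the kinase gene *TBK1* was called, though in both every ERRg library lay below every GFP library. *TLR3* had a log2 fold change of -0.36 (adjusted p = 0.062) and *TBK1*, the kinase downstream of MAVS, STING and TLR3, one of -0.23 (adjusted p = 0.11). The *TBK1* value changed sign, to 0.14, when GC content and gene length were corrected for.

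Among the transcription factors 6 of 8 were tested, with a median log2 fold change of 0.13. *IRF5*, an interferon regulatory factor best known from immune cells, was the only one called. It had 61, 45 and 50 counts with GFP and 36, 28 and 29 with ERRg, or 1.71 ± 0.394 and 1.01 ± 0.292 CPM (SD, n = 3), a low level close to that of silent genes. The log2 fold change of -0.77 ± 0.28 (SE, adjusted p = 0.040, edgeR) was the weakest call of the 10 and was lost in 8 of 16 refits, including 5 of the 6 fits without 1 library, where the values ran from -0.90 to -0.57. With the no-feature share in the model *IRF5* stood at -0.095.

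*IRF3*, the factor that TBK1 activates first, had 737, 902 and 891 counts with GFP and 853, 1424 and 1642 with ERRg. Its groups did not overlap, at 27.4 ± 1.57 and 40.8 ± 8.24 CPM, and ERRg replicate 2 lay nearest to the GFP libraries. The log2 fold change was 0.58 ± 0.14 (SE, adjusted p = 0.0066, edgeR), or 1.49-fold, just under the limit for a call, and 0.83 and called without ERRg replicate 2. With the no-feature share in the model it was 0.04 (adjusted p = 0.86).

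*STAT2*, the subunit of the interferon-activated complex that carries its activation domain, had 2560, 2748 and 2932 counts with GFP and 2236, 3215 and 3684 with ERRg. The ERRg libraries spread on both sides of the GFP libraries, at 95.8 ± 12.2 against 89.4 ± 1.22 CPM, and the log2 fold change of 0.10 ± 0.11 (SE, adjusted p = 0.46, edgeR) changed sign with library size scaling, to -0.23. *NLRC5*, the transactivator of MHC class I genes, stood at 14.0 ± 1.72 and 19.3 ± 0.879 CPM with a log2 fold change of 0.47 (adjusted p = 0.0069), and *IRF1* at 10.1 ± 0.852 and 7.07 ± 0.390 CPM with -0.52 (adjusted p = 0.0060). Neither reached 1.5-fold, and *NLRC5* was called higher at 0.61 without ERRg replicate 2. *IRF1* was called lower in 5 of 16 refits, at -0.84 with library size scaling, -0.66 with protein-coding genes only and -0.67 after correction for GC content and gene length. *IRF2*, which counteracts IRF1 at shared sites, had a log2 fold change of 0.16 (adjusted p = 0.24).

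Of the ISG15 pathway and the TRIM ubiquitin ligases all 6 genes were tested, 1 was higher and none was lower, with a median log2 fold change of 0.43. *ISG15* (chr1:1001138-1014540, plus strand), the ubiquitin-like protein that is joined to other proteins during the interferon response, had 61, 95 and 67 counts with GFP and 109, 179 and 222 with ERRg. Every ERRg library lay above every GFP library, with 4.08, 5.32 and 6.52 CPM in ERRg replicates 2, 3 and 4 against 2.02 to 3.07. The means were 2.42 ± 0.569 and 5.30 ± 1.22 CPM (SD, n = 3) and the log2 fold change 1.14 ± 0.23 (SE, adjusted p = 0.0021, edgeR). With the no-feature share in the model it was 0.54 (adjusted p = 0.17), and *ISG15* was not called.

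The enzymes around ISG15 were not called. *USP18*, the protease that removes ISG15 and a brake on the interferon receptor, had 2.09, 1.97 and 2.81 CPM with GFP and 2.09, 4.01 and 4.20 with ERRg. The groups overlapped through ERRg replicate 2, and the log2 fold change was 0.59 (adjusted p = 0.093), or 0.94 and called without that library. *HERC5*, the ligase that attaches ISG15, had a log2 fold change of -0.28 (adjusted p = 0.069).

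*TRIM25*, the ubiquitin ligase known for acting on RIG-I, had 1841, 2463 and 2398 counts with GFP and 2283, 3397 and 3608 with ERRg. Its groups did not overlap, at 72.5 ± 7.16 and 97.4 ± 10.7 CPM, and the log2 fold change of 0.43 ± 0.11 (SE, adjusted p = 0.010, edgeR) stayed under 1.5-fold. The antibody receptor gene *TRIM21* stood at 0.44 (adjusted p = 0.037) and the antiviral gene *TRIM22* at 0.25 (adjusted p = 0.16). Without ERRg replicate 2, *TRIM25* at 0.62 and *TRIM21* at 0.69 were called higher, and after correction for GC content and gene length *TRIM22* was called higher at 0.61 (adjusted p = 0.0078), while library size scaling gave it -0.08.

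*PARP14*, *PARP9* and *DTX3L* lie beside each other on chromosome 3 and encode ADP-ribosyltransferases and a ubiquitin ligase that forms a complex with PARP9. In all 3 the ERRg libraries lay below the GFP libraries, and 1 was called. *PARP14* (chr3:122680839-122730840, plus strand) had 2259, 2125 and 2220 counts with GFP and 1201, 1440 and 1441 with ERRg, or 72.0 ± 7.12 and 43.3 ± 1.40 CPM (SD, n = 3). It fell by 0.73 ± 0.10 (SE) on the log2 scale (adjusted p = 2.4e-04, edgeR) and stood at -0.53, not called, after correction for GC content and gene length. *DTX3L* had 1918, 1935 and 2086 counts with GFP and 1267, 1746 and 1822 with ERRg, or 64.5 ± 3.04 and 50.9 ± 3.15 CPM, with a log2 fold change of -0.34 ± 0.09 (SE, adjusted p = 0.011, edgeR). *PARP9*, which shares its start region with *DTX3L*, was at 45.5 ± 1.11 and 34.9 ± 0.994 CPM, with -0.38 (adjusted p = 0.0044), and neither reached 1.5-fold.

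Of 14 antiviral effectors 12 were tested, 2 were lower and none was higher, with a median log2 fold change of -0.19. *SLFN5* (chr17:35243071-35273655, plus strand), a Schlafen family member, showed the strongest fall of the 45 genes. It had 867, 822 and 877 counts with GFP and 229, 310 and 313 with ERRg. The ERRg libraries lay within 8.57 to 9.21 CPM and the GFP libraries within 26.5 to 30.8, so the gap between the groups was wide beside the spread in each. The means were 27.9 ± 2.44 and 8.99 ± 0.365 CPM (SD, n = 3), a fall of 1.63 ± 0.11 (SE) on the log2 scale (adjusted p = 4.9e-06, edgeR), and -1.72 with the no-feature share in the model.

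The 2′-5′ oligoadenylate synthetases make the second messenger that activates RNase L. *OAS1* had 34, 54 and 50 counts with GFP and 14, 24 and 33 with ERRg, which did not overlap. At 1.49 ± 0.271 and 0.735 ± 0.223 CPM it lay below the limit set by silent genes, and its log2 fold change of -0.998 ± 0.28 (SE, adjusted p = 0.014, edgeR) lost the call without GFP replicate 3 (-0.87, adjusted p = 0.065) and without ERRg replicate 3 (-0.96, adjusted p = 0.055). It was -1.82 with the no-feature share in the model and -0.70, not called, after correction for GC content and gene length. *OAS3*, its longer relative, had far more reads and stood at 14.5 ± 1.82 and 14.6 ± 1.99 CPM, with a log2 fold change of 0.01 (adjusted p = 0.97) whose sign depended on the scaling. *OASL* stood at 0.46 (adjusted p = 0.29).

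The IFIT proteins bind foreign RNA and block its translation, and all 4 genes, neighbours on chromosome 10, had log2 fold changes below 0 (*IFIT3* was at 0.017 when the replicate block was joined to a correction for GC and length). *IFIT5* was at 17.1 ± 1.18 and 12.1 ± 0.915 CPM with -0.50 (adjusted p = 0.0040), and *IFIT2* at 5.10 ± 0.300 and 3.44 ± 0.439 CPM with -0.57 (adjusted p = 0.015). *IFIT1* and *IFIT3* were at -0.21 (adjusted p = 0.23) and -0.24 (adjusted p = 0.28). None of the 4 was called, though *IFIT2* (-0.71) and *IFIT5* (-0.63) were called lower when protein-coding genes were fitted alone.

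*MX1*, a GTPase that is among the most used markers of type I interferon, had 38, 44 and 49 counts with GFP and 40, 47 and 42 with ERRg. The groups overlapped, and the log2 fold change of -0.05 (adjusted p = 0.86) took the opposite sign with the size factors of DESeq2. The tetherin gene *BST2* was at 0.769 ± 0.216 and 0.955 ± 0.329 CPM with a log2 fold change of 0.31 (adjusted p = 0.47), the exonuclease gene *ISG20* at 0.38 (adjusted p = 0.050), and the nucleotide hydrolase gene *SAMHD1* at -0.16 (adjusted p = 0.27).

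Of the IFI-named genes 4 were tested, and they moved apart. *IFI6* (chr1:27666064-27672212, minus strand), which encodes a small membrane protein of mitochondria and the endoplasmic reticulum, had 245, 352 and 375 counts with GFP and 334, 650 and 774 with ERRg. ERRg replicate 2, at 12.5 CPM, lay just above the highest GFP library at 11.4, and replicates 3 and 4 lay at 19.3 and 22.7. The means were 10.5 ± 1.54 and 18.2 ± 5.21 CPM (SD, n = 3) and the log2 fold change 0.80 ± 0.20 (SE, adjusted p = 0.0077, edgeR). Without ERRg replicate 2 it was 1.11, and with the no-feature share in the model it was -0.02 (adjusted p = 0.96). *LINC02574* shares 23.1% of the exon bases of *IFI6* on the same strand and had 0 to 4 counts per library.

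*IFI44* (chr1:78649796-78664078, plus strand), an antiproliferative interferon-induced gene, had 423, 407 and 500 counts with GFP and 281, 277 and 294 with ERRg. The groups did not overlap, at 14.4 ± 1.10 and 9.12 ± 1.22 CPM, and the log2 fold change was -0.66 ± 0.13 (SE, adjusted p = 0.0018, edgeR). It was -0.37 and not called after correction for GC content and gene length, and -0.36 with the no-feature share in the model (adjusted p = 0.13). Its neighbour *IFI44L* was at 25.6 ± 1.83 and 19.6 ± 4.19 CPM with a log2 fold change of -0.39 (adjusted p = 0.045), under 1.5-fold, and *IFI35* was at 0.09 (adjusted p = 0.76).

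**Figure D3:**
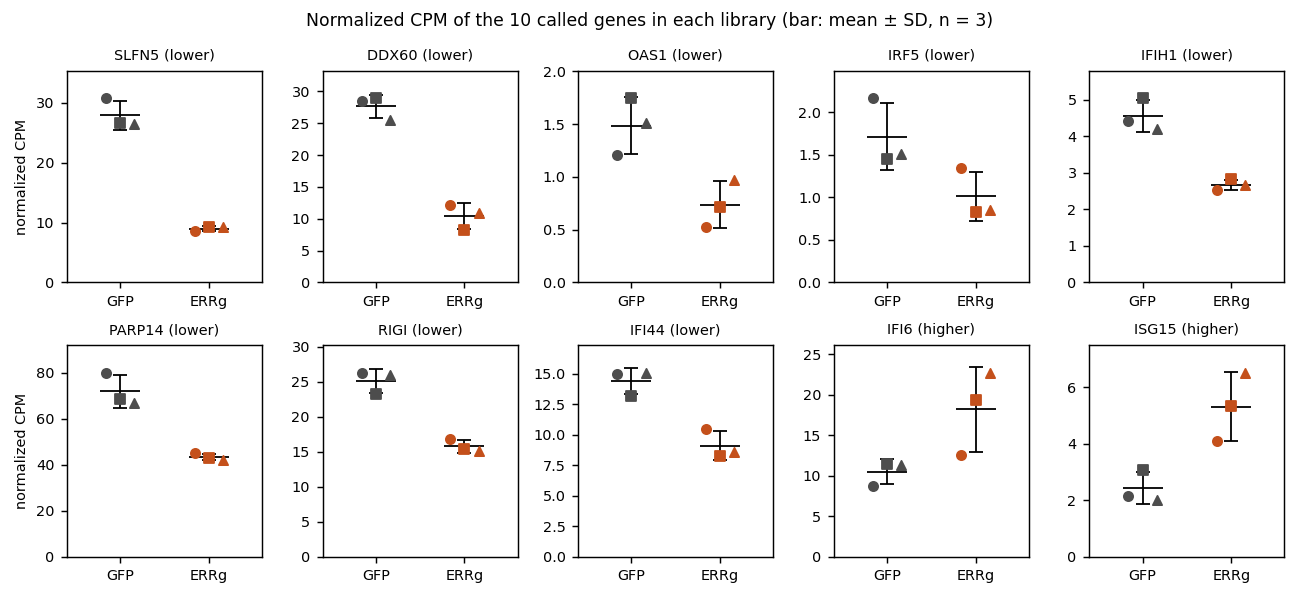
Normalized CPM (y axis, from 0, with a scale of its own in each panel) of the 10 called genes, with 1 point per library and a bar for the mean ± SD (n = 3) of the GFP and the ERRg group. In each of the 8 lower genes every ERRg point lies below every GFP point, and in *IFI6* ERRg replicate 2 lies at 12.5 CPM, close to the GFP libraries.

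The calls differed in how they stood up when the analysis was changed. *SLFN5*, *DDX60* and *IFIH1* were called in all 16 refits at the same cutoffs, with log2 fold changes from -1.96 to -1.18, from -1.72 to -1.03 and from -1.09 to -0.62. *ISG15* kept its call in 15 of them, *PARP14* and *IFI6* in 14, *RIGI* in 13, *OAS1* and *IFI44* in 12 and *IRF5* in 8. At a cutoff of 2-fold only *SLFN5*, *DDX60* and *ISG15* of the 10 stayed called. Of the 27 genes not called, 15 were called in at least 1 refit. *MAVS*, *IRF3*, *NLRC5*, *USP18*, *TRIM21*, *TRIM22* and *TRIM25* were then higher, and *TLR3*, *IRF1*, *HERC5*, *PARP9*, *DTX3L*, *IFIT2*, *IFIT5* and *IFI44L* lower. Without ERRg replicate 2, the ERRg library whose no-feature share was nearest to the control, 8 genes were called higher in place of 2 (*MAVS*, *IRF3*, *NLRC5*, *ISG15*, *USP18*, *TRIM21*, *TRIM25* and *IFI6*), and the same 8 genes were called lower as in the full comparison. Over all tested genes the higher calls also rose in that fit, from 4234 to 5841, and the lower calls from 4117 to 5140. With the no-feature share in the model 0 were called higher and 5 lower, and over all tested genes the calls fell to 1773 higher and 1323 lower. The groups did not overlap in this share, so that fit cannot tell it apart from the virus. Among the ERRg libraries *ISG15*, *IFI6* and *IRF3* were lowest in replicate 2, where this share was highest, and its part in these values was not tested further. The fall of *SLFN5*, *DDX60* and *IFIH1* was present in ERRg replicate 2 as in the others, at 8.57, 12.2 and 2.54 CPM against 26.5, 25.6 and 4.20 in the lowest GFP library.

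**Figure D4:**
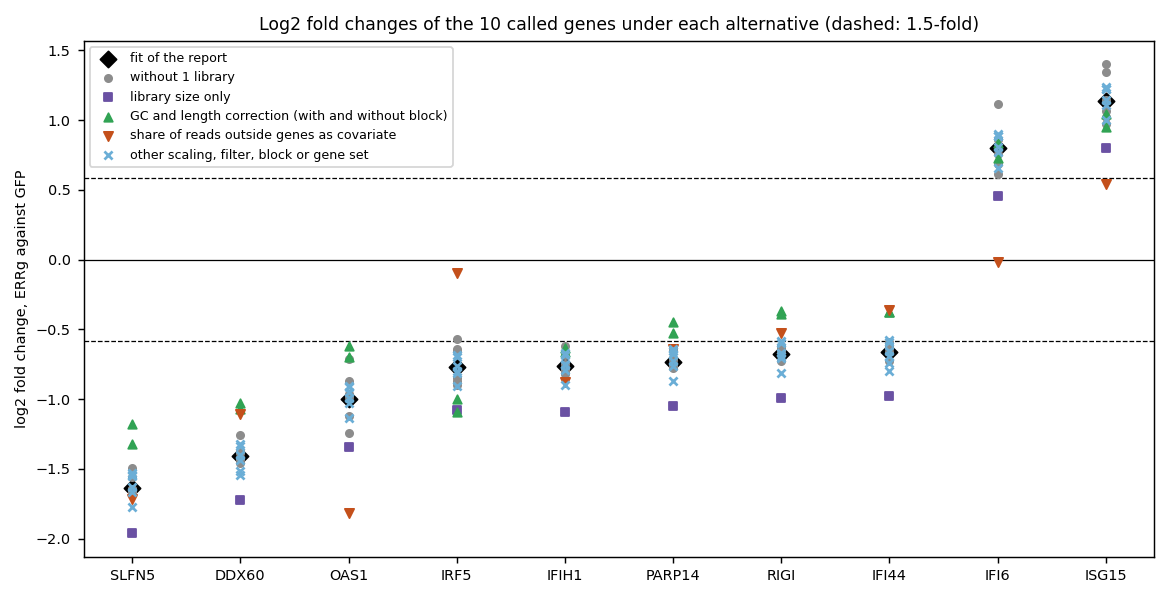
Log2 fold change of ERRg against GFP (y axis) of the 10 called genes under each of the 16 refits, with dashed lines at 1.5-fold and different marks for the value as reported, for fits without 1 library, for scaling by library size only, for the GC and length correction, for the covariate of reads outside genes (the no-feature share) and for other settings. *SLFN5*, *DDX60* and *IFIH1* stay below the lower dashed line throughout, and *IFI6* reaches -0.02 with the no-feature share in the model.

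Another 64 genes of the interferon, JAK-STAT, sensing, NF-κB and antigen processing pathways were read from the same fit. Of these 40 were tested, 4 were higher, 4 were lower, and 11 were at 0 counts in all libraries, with a median log2 fold change of -0.06. The shares called, 10% in each direction and 20% in all, lie beside 17.3%, 16.8% and 34.1% of all tested genes. Among ligands, *IFNB1*, the interferon first made by infected cells, had 3, 2 and 2 counts with GFP and 10, 5 and 2 with ERRg and was not tested. *IFNE*, an interferon best known from the reproductive tract, had 516, 615 and 427 counts with GFP and 374, 245 and 240 with ERRg, or 17 ± 3.66 and 9.44 ± 3.94 CPM (SD, n = 3). Its groups overlapped through ERRg replicate 2, with a log2 fold change of -0.86 ± 0.25 (SE, adjusted p = 0.017, edgeR). It was called in 10 of 16 refits, not without GFP replicates 1 or 3 or ERRg replicates 3 or 4 (-0.80 to -0.68), and stood at 0.018 with the no-feature share in the model. *IFNA1* at -1.498 (adjusted p = 0.0012, 18 to 78 counts per library) and *IFNK* at -1.16 (adjusted p = 0.0095, 21 to 77 counts) were the other ligands tested and were lower as well, and other genes cover 63.4% of the exon bases of *IFNA1*. With the no-feature share in the model *IFNA1* at -0.70 and *IFNK* at -0.13 were not called. Both were named after their values were seen.

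Of 6 interferon receptor chains and their relatives 5 were tested and none was called, and the JAK kinases were not called either. *JAK1* had a log2 fold change of -0.03 (adjusted p = 0.83), *TYK2* 0.18 (adjusted p = 0.15) and *JAK2* -0.57 (adjusted p = 0.0023), the last under 1.5-fold. The feedback inhibitor *SOCS1* was the largest change among these 64 genes, with 14, 26 and 29 counts with GFP and 68, 124 and 137 with ERRg. All ERRg libraries lay above all GFP libraries, at 3.42 ± 0.774 against 0.738 ± 0.210 CPM, 2.20 ± 0.27 (SE) higher on the log2 scale (adjusted p = 1.5e-04, edgeR), and it was called in all 16 refits.

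Of the other sensors and adapters 12 of 18 were tested, 1 was higher and 1 was lower. *TICAM1*, the adapter of TLR3, rose from 12.2 ± 1.04 to 20.6 ± 3.61 CPM (log2 fold change 0.76 ± 0.14, SE, adjusted p = 0.0013, edgeR), and *TLR2*, a sensor of microbial lipoproteins, was lower at 2.94 ± 0.622 and 1.22 ± 0.174 CPM (-1.27 ± 0.23, adjusted p = 0.0012). The RNA-activated kinase *EIF2AK2* at -0.38 (adjusted p = 0.0081), the RNA editor *ADAR* at 0.41 (adjusted p = 0.014), the DNA sensor *IFI16* at -0.49 (adjusted p = 0.0025) and the adapter *MYD88* at 0.48 (adjusted p = 0.010) were under 1.5-fold. The NF-κB subunits *RELA* (59.5 ± 4.12 and 111 ± 21.2 CPM, log2 fold change 0.90 ± 0.14, adjusted p = 4.4e-04) and *RELB* (7.47 ± 1.33 and 13.8 ± 1.92 CPM, 0.89 ± 0.16, adjusted p = 0.0011) were higher. *TICAM1*, *RELA* and *RELB* all lost the call with library size scaling (0.43, 0.57 and 0.56), after correction for GC content and gene length (0.30, 0.54 and 0.41) and with the no-feature share in the model (0.34, 0.40 and 0.53), where *TLR2* was not called either (-0.90). Of 8 antigen processing genes 3 were tested and none was called, and *TAP1*, *TAP2*, *PSMB8* and *PSMB9* were at 0 in all libraries, with at least 89.7% of the transcript words of each also in alternate contigs.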

How the data were processed

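The authors deposited raw read counts per human gene. The submitters' processing notes name CASAVA, Trim Galore 0.6.7, STAR 2.7.9a, HTSeq 0.11.3, DESeq2 and GRCh38, and the annotation release and strand setting are not given in the sources used here. Ambiguous reads were counted apart from the genes, and counting without strand, if used, would make overlaps between opposite strands ambiguous as well. Identifiers were matched to GENCODE 44 (60419 of 67016 genes, 90.2%). All genes were fitted together with edgeR 4.0.16 in R 4.3.3 (filterByExpr, TMM, quasi-likelihood test, Benjamini-Hochberg over 24500 genes), calling genes at adjusted p below 0.05 and a fold of at least 1.5. The SE is the size of the log2 fold change divided by the root of the F statistic. CPM uses TMM factors, and limits of 3 counts cover counting error only. The labels do not say whether the 2 shared replicate numbers pair samples. In fits with a replicate block the contrast rests on replicates 3 and 4, since numbers 1 and 2 each occur in 1 group only. The listed genes, the other lists and the tests were chosen with earlier results of these data known. Every listed gene is named. Full values are given for called genes and for the 6 highest per length, and of other pathway genes those called with a mean of at least 50 counts are named, the rest after their values were seen. Alternatives were DESeq2 1.42.0, other scalings, filters and cutoffs, a fit of protein-coding genes alone, leaving out each library, the replicate block, a GC and length correction (mgcv 1.9.3, 98.9% of genes) and the share of reads assigned to no gene as a covariate. In simulated counts with 200 of 24500 genes changed, edgeR recovered 186 with 10 false calls and DESeq2 188 with 15. That is far fewer changed genes than the 8351 called in the data, so the simulation does not test the scaling. Promoter windows came from RefSeq (GRCh38.p14). Some genes of the other lists are not reported here by name.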

Additional observations from a re-analysis of the deposited data

How the results depend on the processing

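Of 592 values of the listed genes under 16 refits, 493 kept direction and side of the threshold, 23 lost a call, 34 gained one and 42 changed sign. DESeq2, RLE size factors, no filter and a minimum of 10 counts per library moved no count of calls by over 1.5 times. Genes changed among all tested were 8351, 5282 of the protein-coding genes, 3096 with the no-feature share as a covariate, 3934 at 2-fold and 6738 to 10981 without 1 library. The 2 higher and 8 lower genes became 1 and 16 with library size scaling, 7 and 14 with no fold cutoff, 1 and 2 at 2-fold, 0 and 5 with the covariate, 2 to 8 and 6 to 8 without 1 library, and 5 lower with the GC and length correction. The median of -0.21 became -0.54 with library size, -0.35 with protein-coding genes, -0.066 with GC and length, and -0.212 to -0.039 without 1 library. Other pathway genes, 4 higher and 4 lower, became 1 and 13 with library size, 8 and 10 with no fold cutoff, 1 and 2 with the covariate, 4 to 9 and 3 to 4 without 1 library, 1 higher with GC and length, 1 higher at 2-fold, and 7 lower with protein-coding genes. The causes were not tested.

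Deviations of same-numbered libraries from their group means had correlations of 0.129 and 0.027, beside -0.19 to 0.221 for libraries with different numbers. Only 2 numbers are shared and the deviations within a group depend on each other. These values therefore cannot tell whether the numbers pair the samples, and the labels do not say. In the replicate block GFP replicate 1 and ERRg replicate 2 each stood alone in a block, so the contrast rested on replicates 3 and 4 of both groups. That fit gave 10435 changed genes and 5 higher and 10 lower members of the list, and with the GC and length correction 4 higher, 5 lower, a median of 0.017 and 2 other pathway genes higher. Signs also changed there for *TLR3* (0.04), *TBK1* (0.098), *IFIT3* (0.017), *OAS3* (-0.039), *MX1* (0.205), *SAMHD1* (0.105) and *IFI35* (-0.084).

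Signs changed with library size for *STAT2* (-0.23), *IRF2* (-0.17), *TRIM22* (-0.079), *OAS3* (-0.33), *BST2* (-0.026) and *IFI35* (-0.23). With the covariate they changed for *TBK1* (0.078), *STAT2* (-0.20), *IRF2* (-0.15), *USP18* (-0.43), *TRIM21* (-0.068), *OAS3* (-0.37), *MX1* (0.15), *BST2* (-0.049), *IFI6* (-0.018), *IFI44L* (0.079) and the ligand *IFNE* (0.018). With GC and length they changed for *TBK1* (0.14), *STAT2* (-0.035), *OAS3* (-0.036), *MX1* (0.26) and *IFI35* (-0.22), and with protein-coding genes for *STAT2* (-0.041), *OAS3* (-0.13) and *IFI35* (-0.044). *OAS3* was -0.023 at a minimum of 10 counts, and *MX1* was 0.043 with DESeq2 and 0.029 with RLE. Leaving out 1 library at a time, *OAS3* ran from -0.086 to 0.22, *MX1* from -0.081 to 0.034, *BST2* from -0.008 to 0.543, *SAMHD1* from -0.228 to 0.057 and *IFI35* from -0.008 to 0.287. Of the genes in this paragraph only *IFI6* and *IFNE* were called in the full comparison.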

Other observations

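Summed over the 415 olfactory receptor genes, normalized counts were 37.7, 34.6 and 35.4 CPM in GFP replicates 1, 3 and 4 and 43.1, 24.2 and 20.05 CPM in ERRg replicates 2, 3 and 4. The 2 ERRg libraries with the lowest sums were those with the fewest reads outside genes. *B2M*, of whose transcript words 88.7% also occurred in alternate contigs, had 775 to 1349 counts per library.

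The comparison has 3 libraries per group from 1 cell line at 24 h. It holds no cells without virus, so whether either adenovirus raised or lowered the interferon genes cannot be told apart from their level in these cells. Fewer cells that express a gene and less RNA per cell cannot be told apart in bulk RNA. At the depth of these libraries a gene at 0 counts is limited to 0.088 to 0.112 CPM, where the counting could assign its reads.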
